A study of Sus scrofa with 4 samples.

Results

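The genes described here are 10 genes that store, silence or shorten the maternal mRNAs of the oocyte, namely BTG4, CNOT7, CNOT6L, CPEB1, ZAR1, YBX2, DAZL, PABPC1L, PATL2 and ZFP36L2. They were chosen by name, not by a limit on their values, but with earlier results of these data known. Of the 10, 9 have a row with values among the 16050 genes of the table. No row carries the symbol PATL2, so PATL2 was not analysed here. RNA was sequenced from porcine metaphase II oocytes of slaughterhouse ovaries, matured in vitro inside their cumulus cells for 44 h, either in medium without added copper (Control) or with 25 μg/mL Cu given as copper sulfate. Dose and time are those the study's methods give for its main experiments, and the labels give only Control or Copper. Each library was made from 3 pooled oocytes, and 4 libraries were analysed, Control 1 and 2 and Cu 1 and 3. The methods describe 3 sets per group, and the labels do not say whether the libraries came from separate cultures, so p-values measure only the spread between these libraries.

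A fully grown oocyte stops transcription and lives on mRNAs that it made earlier. Many of these carry short poly(A) tails and are held silent by proteins such as CPEB1, ZAR1 and YBX2 until meiosis resumes, when their tails are lengthened and they are translated. Other maternal mRNAs are then cleared: BTG4 is an adaptor that brings the CCR4-NOT complex to mRNAs, and the CNOT7 and CNOT6L subunits of that complex remove the poly(A) tail. The libraries were primed with oligo(dT), so the values follow mRNAs with a poly(A) tail, and a different amount of an mRNA and a different tail length cannot be told apart. The values are FPKM, fragments per kilobase of transcript scaled to the mapped fragments of the library, a relative level. A change in the total mRNA of an oocyte would not be seen on this scale, and a lower share from fewer copies of a gene and one from more RNA of other genes cannot be told apart.

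Markers of the oocyte and of the cells around it were measured first. Summed over 11 oocyte markers with values, among them ZP2, ZP3, GDF9 and BMP15, the level was between 10728 and 12985 FPKM in the 4 libraries, most of it from DPPA3, H1FOO and OOEP. Single markers were less even. ZP3 was at 88.3, 122 and 96.4 FPKM in Control 1, Control 2 and Cu 3 but at 483 FPKM in Cu 1, and GDF9 at 119, 218, 242 and 624 FPKM in the same order. Of the 11 oocyte markers 8 had a positive log2 fold change, where 64.3% of all tested genes did. The markers' median was 0.59, and 0 of them passed an unadjusted p of 0.05. The part of this in the results below was not tested. Of 18 markers of cumulus and granulosa cells, 5 had no values, and 11 of the other 13, PTX3, CYP19A1, AMH and GJA1 among them, were below 1 FPKM in every library. The sum of these 13 was 11.8 FPKM (Control 1), 18.1 (Control 2), 16.5 (Cu 1) and 14.9 (Cu 3), most of it from FST. Cu 1 stood apart from the other libraries. It held 9364 genes at 1 FPKM or more, against 7923 to 8162 in the others, and was the highest library for 51.0% of the tested genes. Its correlation with the other libraries was 0.918 to 0.923 on log2(FPKM + 1) across tested genes, which are not independent replicates, whereas the other pairs had 0.959 to 0.976. The Cu libraries are therefore also described one by one for the listed genes.

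BTG4 mRNA (identifier 100514308, chr9:39253116-39281327, build Sscrofa11.1) was one of the most abundant mRNAs of these oocytes. Its level was 26512 FPKM (Control 1), 24654 (Control 2), 16671 (Cu 1) and 17672 (Cu 3). It ranked 2 of the 16050 genes in both Control libraries and in Cu 1, and 3 in Cu 3. BTG4 alone took 4.06% and 4.0% of all FPKM in Control 1 and 2 and 2.52% and 2.63% in Cu 1 and 3, and at least 96.7% of the summed FPKM of the 9 measured genes in every library. Both libraries labelled Cu were thus below both Control libraries, with a distance between the groups that exceeded the distance within either of them.

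CNOT7 (identifier 100154442, chr17:4934379-4950093), the catalytic Caf1 subunit of CCR4-NOT, was the second most abundant of these genes. It was measured at 722 FPKM (Control 1), 742 (Control 2), 382 (Cu 1) and 386 (Cu 3). The 2 values of each group were close together and far from those of the other group, and its mean level was 1.91-fold lower in the libraries labelled Cu. CNOT6L (identifier 100512848, chr8:73191721-73335779), the other catalytic subunit listed here and a Ccr4-type deadenylase, showed no such distance. Its 4 libraries lay between 11.2 and 13.2 FPKM, and the groups overlapped.

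The remaining 6 genes were expressed at far lower levels than BTG4 and CNOT7. CPEB1 (identifier 100048944, chr7:52329054-52382408), which binds the cytoplasmic polyadenylation element of stored mRNAs, was at 25.3 FPKM (Control 1), 49.0 (Control 2), 22.5 (Cu 1) and 22.4 (Cu 3). Both Cu libraries were below both Control libraries, but the gap to Control 1 was small and the Control libraries were far from each other. DAZL (identifier 100625706, chr13:3762896-3783848), a germ cell protein that promotes the translation of maternal mRNAs, had 16.4 FPKM (Control 1), 13.6 (Control 2), 6.84 (Cu 1) and 22.9 (Cu 3). The Cu libraries lay on either side of the Control libraries.

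ZAR1 (identifier 574050, chr8:38386520-38391618), a zinc finger protein of oocyte mRNA storage, was at 6.0 FPKM (Control 1), 4.56 (Control 2), 24.9 (Cu 1) and 8.84 (Cu 3). Of the 9 genes it alone had both values labelled Cu above those of Control, and Cu 1 was far above Cu 3. YBX2 (identifier 100519387, chr12:52635383-52642443), a Y-box protein that packages mRNAs in germ cells, had 2.28 FPKM (Control 1), 2.09 (Control 2), 10.1 (Cu 1) and 1.20 (Cu 3). Here Cu 1 was the highest and Cu 3 the lowest library.

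The same order was seen in PABPC1L and ZFP36L2. PABPC1L (identifier 100151962, chr17:47321259-47351905), the embryonic poly(A)-binding protein, was at 26.5 FPKM (Control 1), 19.2 (Control 2), 48.0 (Cu 1) and 16.2 (Cu 3). ZFP36L2 (identifier 100513591, chr3:97200395-97203094), a protein that binds AU-rich elements and recruits deadenylases, had 0.84 FPKM (Control 1), 1.61 (Control 2), 4.09 (Cu 1) and 0.70 (Cu 3). At values this close to 1 FPKM the number of reads behind ZFP36L2 is unknown, and it entered the test through Control 2 and Cu 1 alone.

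**Figure D1:**
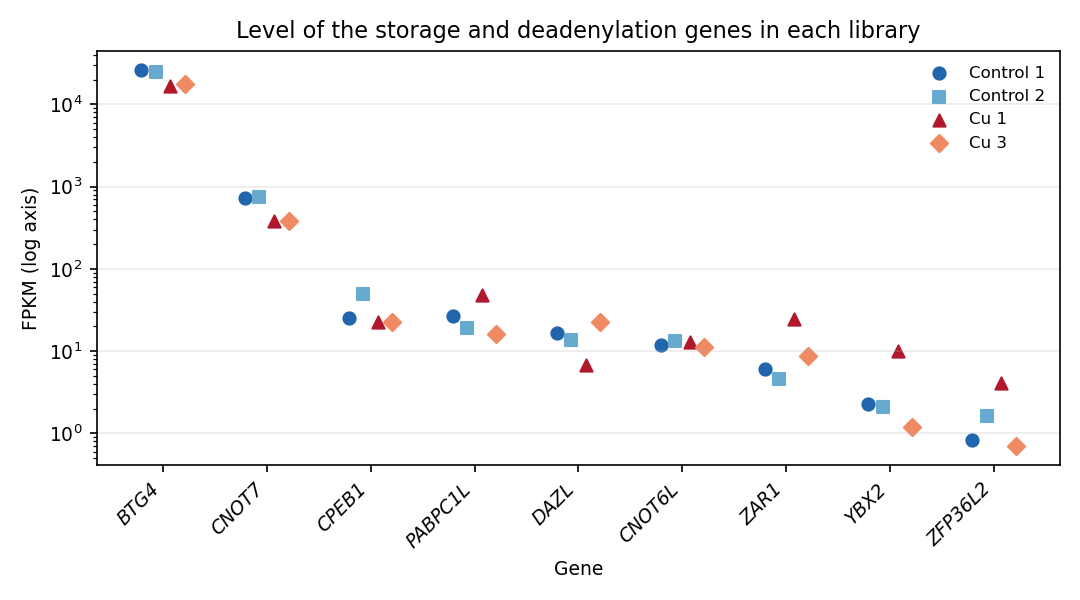
Level of each of the 9 measured genes in every library, in FPKM on a log axis, ordered by the mean of the 4 libraries. Circles and squares are Control 1 and 2, triangles and diamonds Cu 1 and 3. BTG4 and CNOT7 lie above all the others and have both Cu libraries below both Control libraries, while YBX2, PABPC1L and ZFP36L2 have Cu 1 on top and Cu 3 at the bottom.

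Ordered by the mean of the 4 libraries, the levels ran from 21377 FPKM for BTG4 and 558 FPKM for CNOT7 down to 29.8 FPKM for CPEB1, 27.5 for PABPC1L, 14.9 for DAZL, 12.2 for CNOT6L, 11.1 for ZAR1, 3.93 for YBX2 and 1.81 for ZFP36L2. The first 2 stood clear of everything below them. From CPEB1 downwards, the ranges over libraries of each pair of neighbours in this order overlapped, so the order of neighbours is not beyond their spread. Some genes further apart did not overlap, such as CPEB1 above CNOT6L and CNOT6L above YBX2. Within each library BTG4 was 33.2 to 45.8 times as high as CNOT7, and CNOT7 was 61.5 and 56.1 times as high as CNOT6L in Control 1 and 2 but 29.8 and 34.4 times in Cu 1 and 3.

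The groups were compared with limma's moderated test on log2(FPKM + 1) over the 8541 genes with at least 1 FPKM in 2 or more libraries. All 9 measured genes passed this filter. After adjustment none of them passed 0.05, nor did any other tested gene (0.0% called), the smallest adjusted p of any gene being 0.631. An exact two-sided permutation test of 2 libraries against 2 cannot give a p below 0.333. At an unadjusted p of 0.05 or less, 2 of the 9 genes were lower in Cu (BTG4 and CNOT7), where 1.43% of all tested genes were, and 1 was higher (ZAR1), where 5.58% were. Both Cu libraries were below both Control libraries in 3 of the 9 genes, against 13.4% of all tested genes, and higher than these in 1 of the 9, against 25.4%. No test was made of these counts, because the genes were listed with earlier results of these data known.

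CNOT7 had the smallest p of the 9 genes. Its log2 fold change was -0.93 (95% confidence interval -1.51 to -0.35, unadjusted p = 0.0081 and adjusted p = 0.631 in limma's test). For BTG4 the log2 fold change was -0.57 (interval -1.06 to -0.09, unadjusted p = 0.028 and adjusted p = 0.656 in limma's test). The BTG4 value shrank to -0.21 when the libraries were quantile-normalized, which maps the top ranks of all libraries to the same values, and was -0.82 and -0.84 after median-of-ratios and upper-quartile scaling, with unadjusted p-values of 0.237, 0.0838 and 0.0832 in limma's test. It likewise missed 0.05 without the variance trend (unadjusted p = 0.119) or without the filter on low values (unadjusted p = 0.345). ZAR1 had a log2 fold change of 1.36 (interval 0.04 to 2.67, unadjusted p = 0.045 and adjusted p = 0.685 in limma's test), which was 0.66 without Cu 1 and 2.05 without Cu 3. CPEB1 reached -0.63 (interval -1.62 to 0.36), and only -0.16 without Control 2. For the other 5 genes the intervals were wide and held 0. They ran from -0.88 to 0.78 for CNOT6L, from -1.62 to 1.18 for DAZL, from -1.22 to 2.49 for YBX2, from -1.04 to 1.65 for PABPC1L and from -0.99 to 1.84 for ZFP36L2.

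**Figure D2:**
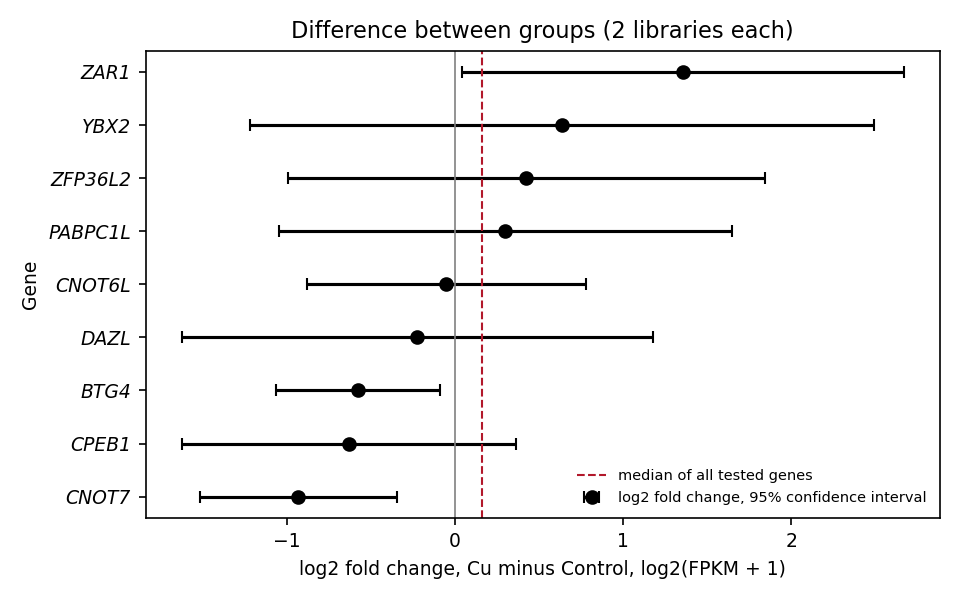
Log2 fold change of each gene between the groups, Cu minus Control, on log2(FPKM + 1), with 2 libraries a group. Points are limma estimates, bars their 95% confidence intervals, and the dashed line is the median of all tested genes at 0.16. The intervals of CNOT7 and BTG4 lie below 0, that of ZAR1 just above it, and those of the other 6 genes cross it.

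Over the 9 genes the median log2 fold change was -0.05, with 4 values above and 5 below 0, beside a median of 0.16 over the 8541 tested genes. Without BTG4 the median of the other 8 was 0.13. Together the 9 genes held 4.18% and 4.14% of all FPKM in Control 1 and 2 and 2.60% and 2.70% in Cu 1 and 3, a distance that came almost wholly from BTG4. Without BTG4, the other 8 summed to 811 and 845 FPKM in Control 1 and 2 and to 511 and 469 FPKM in Cu 1 and 3, most of it from CNOT7.

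The authors' mean FPKM of each group takes in more than the libraries analysed here, and it narrows each of these distances. Every authors' mean is a whole number of hundredths when multiplied by 3, the number of sets described, and so fits an average over 3 sets of which 2 per group were analysed. For CNOT7 the authors' means were 615 for Control and 422 for Cu, 1.46-fold apart, where the library means were 1.91-fold apart. For BTG4 they were 23607 and 18716, or 1.26-fold instead of 1.49-fold. For CPEB1 they were 29.3 and 26.2, or 1.12-fold, while the library means of 37.1 ± 16.7 for Control and 22.4 ± 0.057 for Cu (SD, n = 2) were 1.65-fold apart. ZAR1 had authors' means of 7.41 for Control and 13.3 for Cu, 1.80-fold instead of 3.20-fold. The direction stayed the same in these means, which include the libraries themselves and are no separate evidence. If 3 sets were averaged, the sets not analysed here ran in the opposite direction in all 4 genes, as they did in 54.7% of the 3313 tested genes whose groups did not overlap.

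The libraries labelled Cu lay close together for some of the 9 genes and far apart for others. Set against the mean of the Control libraries on log2(FPKM + 1), BTG4 differed by -0.62 in Cu 1 and -0.53 in Cu 3, CNOT7 by -0.94 and -0.92, and CPEB1 by -0.63 in both. These 3 genes, all lower, were the ones in which Cu 1 and Cu 3 lay closer together than Control 1 and 2. In the other 6 the Cu pair was the wider one, as it was in 70.5% of all tested genes. YBX2 differed by 1.81 in Cu 1 and -0.53 in Cu 3, ZFP36L2 by 1.22 and -0.37, and PABPC1L by 1.06 and -0.45. DAZL went the other way, with -1.02 in Cu 1 and 0.58 in Cu 3. The Cu libraries thus differed from the Control mean in opposite directions in 5 of the 9 genes, CNOT6L included, as they did in 42.7% of all tested genes. Cu 1 was the highest library for 4 of the 9 genes (ZAR1, YBX2, PABPC1L and ZFP36L2), beside the 51.0% of all tested genes given above. The median distance between the Cu libraries was 1.40 over the 9 genes and 0.56 over all tested genes, and between the Control libraries it was 0.25 and 0.27. The part of library Cu 1's higher number of detected genes in these differences was not tested.

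**Figure D3:**
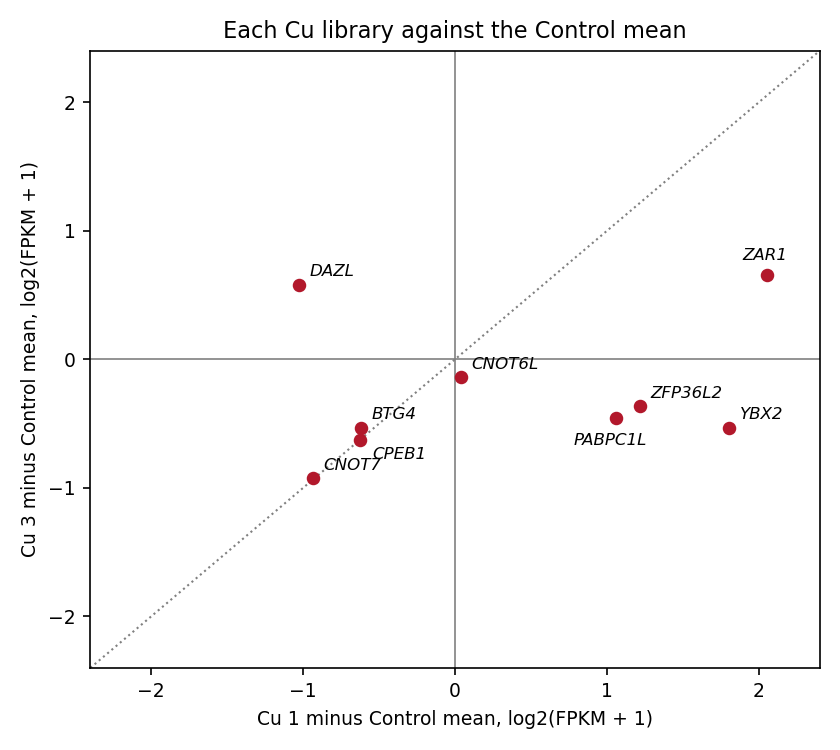
Difference of each Cu library from the mean of the Control libraries on log2(FPKM + 1), Cu 1 on the horizontal and Cu 3 on the vertical axis, with the dotted line where both are equal. CNOT7, BTG4 and CPEB1 lie near that line below 0, ZAR1 is above 0 on both axes, and YBX2, ZFP36L2 and PABPC1L are positive for Cu 1 and negative for Cu 3.

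The rest of the CCR4-NOT complex was examined for comparison with CNOT7. Of its 9 other subunits, all tested, 5 had a positive and 4 a negative log2 fold change, where 64.3% of all tested genes had a positive one, and 0 passed 0.05 in limma's test, whether p was adjusted or not. At the unadjusted limit 5.58% of all tested genes were higher and 1.43% lower. CNOT8, the paralogue of CNOT7, was at 40.0 FPKM (Control 1), 40.5 (Control 2), 32.5 (Cu 1) and 44.2 (Cu 3). CNOT7 was accordingly 18.1 and 18.3 times as high as CNOT8 in the Control libraries and 11.8 and 8.73 times as high in Cu 1 and 3. CNOT6, the paralogue of CNOT6L, was similar to it, at 7.46 to 14.6 FPKM. CNOT1, the scaffold that holds the complex together, was at only 2.94 to 4.17 FPKM, so that CNOT7 stood between 94.7 and 246 times above it. CNOT4, a subunit with ubiquitin ligase activity, was at 36.4 FPKM (Control 1), 46.0 (Control 2), 29.8 (Cu 1) and 36.1 (Cu 3), so that its groups did not overlap either, with Cu 3 next to Control 1. It was the 1 of 9 subunits with both Cu values below, against 13.4% of all tested genes, and 2 of 9 had both above, against 25.4%. These were CNOT10, at 9.03 FPKM (Control 1), 7.69 (Control 2), 11.6 (Cu 1) and 11.8 (Cu 3), and CNOT9, at 5.45, 6.39, 9.75 and 6.80 FPKM in that order. CNOT11, an accessory subunit, was the next highest after CNOT7, with 50.9 FPKM in Cu 3 and 119 FPKM in Cu 1 as its extremes. CNOT7 and CNOT8, and CNOT6 and CNOT6L, are similar in sequence, and how the reads were divided between such pairs is uncertain.

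Among the relatives of BTG4, BTG1 was at 5.67 FPKM (Control 1), 5.59 (Control 2), 9.85 (Cu 1) and 12.6 (Cu 3), with a log2 fold change of 0.87 (unadjusted p = 0.0502 and adjusted p = 0.708 in limma's test). The authors' means of BTG1 were 8.13 (Control) and 10.4 (Cu), closer together than the library means of 5.63 and 11.2. If 3 sets were averaged, those not analysed here ran in the opposite direction for BTG1. BTG2, BTG3 and TOB1 lay between 1.10 and 9.04 FPKM, and TOB2 was too low to be tested. The BTG4 mRNA was thus far above every other gene of its family.

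**Figure D4:**
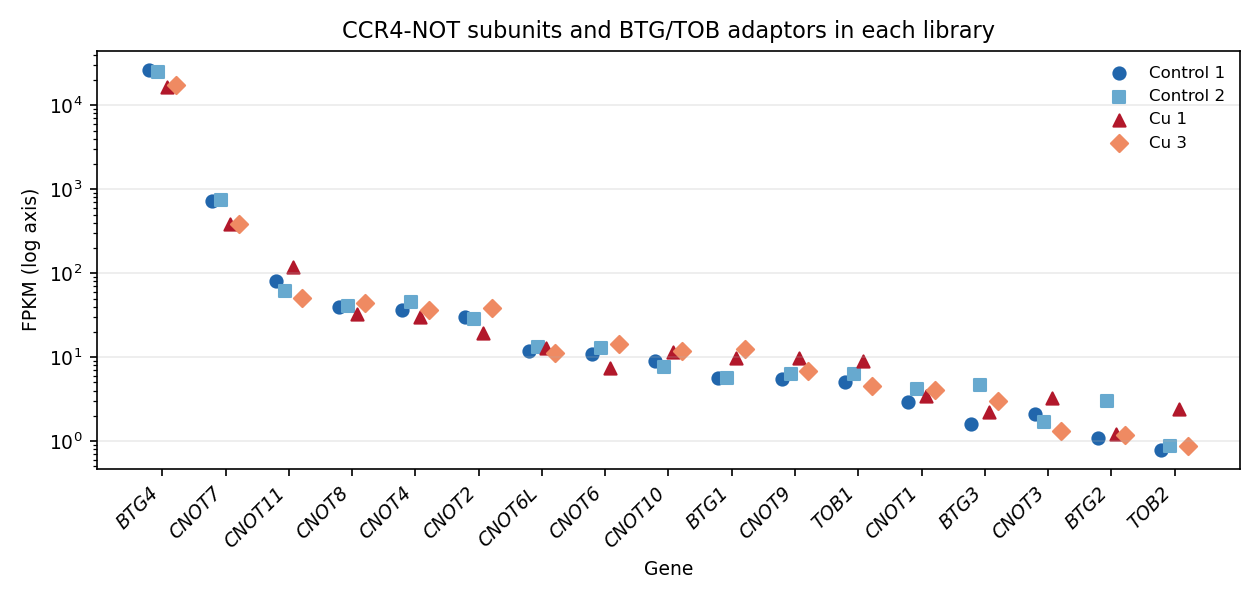
Levels of the CCR4-NOT subunits and of the BTG and TOB adaptors in each library, in FPKM on a log axis, ordered by their mean. Symbols are as for the listed genes. BTG4 and then CNOT7 stand above every other gene shown, and CNOT7 has both Cu libraries far below both Control libraries, and in CNOT4 the groups are separated by less.

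Deadenylases outside the complex (PAN2, PAN3, PARN, NOCT and 5 others) had 7 positive and 2 negative log2 fold changes among 9 tested genes, and 0 of them passed an unadjusted p of 0.05. PARN was at 7.76 FPKM (Control 1), 8.12 (Control 2), 14.6 (Cu 1) and 9.84 (Cu 3). Decapping factors and the LSM ring, which act after the tail is removed, had 16 tested genes, 12 of them with a positive log2 fold change and 2 past an unadjusted p of 0.05, both higher in Cu, and 0 past it once p was adjusted. Over all tested genes 64.3% were positive and 5.58% past that limit and higher, and the list was not tested against them. LSM6 had the smallest p, with 5.24 FPKM (Control 1), 4.55 (Control 2), 13.6 (Cu 1) and 11.1 (Cu 3), which gave a log2 fold change of 1.17 (adjusted p = 0.641 in limma's test). LSM3 had a log2 fold change of 0.80. After median-of-ratios and upper-quartile scaling LSM3 was no longer past the limit (unadjusted p = 0.181 and 0.201 in limma's test). The authors' means of LSM6 were 6.91 (Control) and 11.2 (Cu), closer together than the library means of 4.9 and 12.3. Those of LSM3 were 273 and 336, against library means of 212 and 369. DCP1A, a decapping activator, was at 59.5 FPKM (Control 1), 57.0 (Control 2), 40.0 (Cu 1) and 26.7 (Cu 3), which gave a log2 fold change of -0.81 (adjusted p = 0.708 in limma's test), while DCP2, the decapping enzyme, stayed between 9.93 and 10.4 FPKM. For DCP1A the authors' means were 45.4 (Control) and 38.9 (Cu), against library means of 58.2 and 33.4. If 3 sets were averaged, those not analysed here ran in the opposite direction for LSM6, LSM3 and DCP1A. PATL1, the paralogue of PATL2, was at 18.7 to 19.6 FPKM in Control 1, Control 2 and Cu 1 and at 11.3 FPKM in Cu 3. The ZFP36 relatives of ZFP36L2 were at 3.50 to 9.54 FPKM (ZFP36) and 3.39 to 5.56 FPKM (ZFP36L1), with Cu 1 the highest library in both.

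In the storage machinery, ZAR1L, the paralogue of ZAR1, was the more abundant of the pair in every library. It was at 164 FPKM (Control 1), 303 (Control 2), 450 (Cu 1) and 459 (Cu 3), which was 18.1 to 66.5 times the level of ZAR1. The groups did not overlap, and the Cu values were the higher ones, for ZAR1L as for ZAR1. Its log2 fold change was 1.02 (interval 0.15 to 1.90, unadjusted p = 0.028 and adjusted p = 0.656 in limma's test). The authors' means were 250 (Control) and 400 (Cu), against library means of 234 and 455. If 3 sets were averaged, those not analysed here lay close together for ZAR1L, with Cu slightly the higher. ZAR1L was the only 1 of 15 tested storage genes outside the list past an unadjusted p of 0.05. Over all tested genes 5.58% were past it and higher. Under median-of-ratios and upper-quartile scaling ZAR1L was no longer past it, with log2 fold changes of 0.78 and 0.76. The log2 fold change was 0.58 without Control 1 and 1.47 without Control 2. YBX1, the somatic relative of YBX2, was at 36.6 to 48.6 FPKM and was between 4.80 and 30.5 times as high as YBX2. The silencing partners LSM14A (6.38 to 14.1 FPKM) and DDX6 (3.25 to 6.56 FPKM) were low, and LSM14B was at 0.61 to 2.80 FPKM. Of the CPEB1 partners, EIF4ENIF1 (4E-T), which binds eIF4E in stored mRNPs, was high at 99.3 FPKM (Control 1), 110 (Control 2), 157 (Cu 1) and 62.3 (Cu 3), and EIF4E1B, the oocyte form of eIF4E, was at 21.1 to 22.5 FPKM in 3 libraries and 55.0 FPKM in Cu 1. CPEB1 was the most abundant CPEB gene in each library, 1.66 to 7.76 times as high as CPEB2, and 2.26 to 5.34 times as high as CPEB4. Of 12 tested genes of the CPEB family and its partners, 0 passed an unadjusted p of 0.05. Over all tested genes 5.58% were past it and higher and 1.43% lower.

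For the poly(A)-binding proteins, PABPC1L was 24.2 to 55.2 times as high as PABPC1, the main somatic form, which was below 1 FPKM in all 4 libraries and so was not tested. PABPC1 has many processed copies in mammalian genomes, so its reads may be assigned with uncertainty. PABPC4 was 1.15 to 2.84 times as high as PABPC1L. PABPN1L, another poly(A)-binding protein of oocytes, was at 9.24 FPKM (Control 1), 7.83 (Control 2), 17.6 (Cu 1) and 6.0 (Cu 3), so that Cu 1 was highest and Cu 3 lowest as in PABPC1L. TENT2 (GLD2), the cytoplasmic poly(A) polymerase, was at 19.6 FPKM (Control 1), 20.4 (Control 2), 15.5 (Cu 1) and 13.02 (Cu 3). Of 15 tested genes of poly(A) binding and polyadenylation outside the list, 11 had a positive and 4 a negative log2 fold change. The positive share over all tested genes was 64.3%. Of these 15 genes 0 passed an unadjusted p of 0.05, where 5.58% of all tested genes were past it and higher and 1.43% lower. The median of 0.15 was -0.21 without Cu 1 and 0.78 without Cu 3.

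Maternal mRNAs known to be recruited to translation during meiotic maturation were looked at because the listed proteins act on them. Outside the list there were 8 tested genes, of which 5 had a negative log2 fold change. Past an unadjusted p of 0.05 were 2 of the 8, both lower in Cu. Over all tested genes 1.43% were past it and lower, and 64.3% had a positive log2 fold change. The list was not tested against these shares. WEE2, an oocyte kinase that inhibits CDK1, was at 618 FPKM (Control 1), 916 (Control 2), 356 (Cu 1) and 238 (Cu 3), which gave a log2 fold change of -1.37 (interval -2.19 to -0.55, adjusted p = 0.631 in limma's test). CCNB1, cyclin B1, was at 1666 FPKM (Control 1), 1433 (Control 2), 794 (Cu 1) and 901 (Cu 3), which gave a log2 fold change of -0.87 (interval -1.46 to -0.28, adjusted p = 0.641 in limma's test). The authors' means narrowed both distances. For WEE2 they were 567 (Control) and 337 (Cu), against library means of 767 and 297. For CCNB1 they were 1376 and 1062, against library means of 1550 and 848. If 3 sets were averaged, those not analysed here ran in the opposite direction for both WEE2 and CCNB1. The same held in 54.7% of the tested genes whose groups did not overlap. MOS, the kinase that maintains metaphase II arrest, overlapped between the groups, with 351 FPKM (Control 1), 627 (Control 2), 632 (Cu 1) and 382 (Cu 3). The median of the 8 genes was -0.25, beside 0.16 for all tested genes, and it was -0.19 without Cu 1, -0.61 without Cu 3 and -0.42 without Control 1.

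Over the pathway lists together, 103 genes outside the 9 were tested, 5 of them past an unadjusted p of 0.05 and higher in Cu and 3 past it and lower, and 0 past it once p was adjusted in limma's test. Over all tested genes 5.58% were past the unadjusted limit and higher and 1.43% lower. In 27 of the 103 the Cu values lay wholly above the Control values, against 25.4% of all tested genes. In 17 they lay wholly below, against 13.4%. The lists were not tested against these shares.

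**Figure D5:**
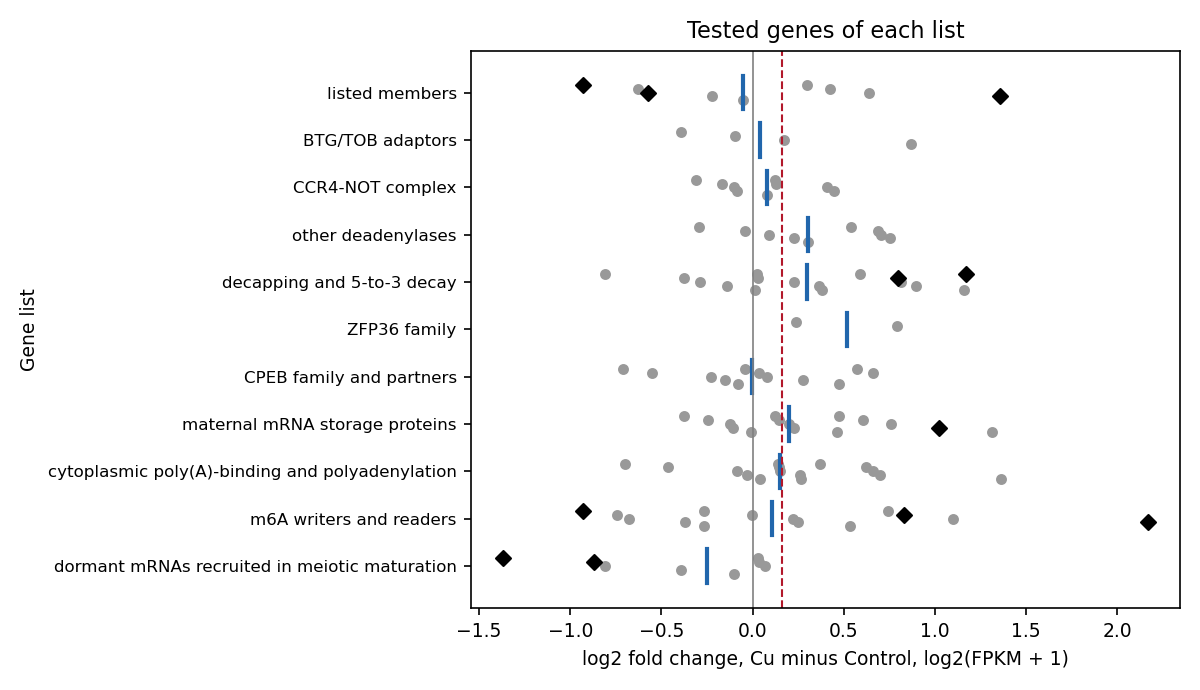
Log2 fold change, Cu minus Control on log2(FPKM + 1), of each tested gene in the listed set and in the pathway lists with more than 1 tested gene, the listed genes being left out of the other lists. Black diamonds are genes with an unadjusted p of 0.05 or less, grey circles the other genes, blue bars the list medians, and the dashed line the median of all tested genes at 0.16. The lists lie around that line, and the dormant mRNAs, with a median of -0.25, are the furthest below it.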

How the data were processed

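Gene expression was measured by Smart-seq2 in 4 libraries of 3 porcine oocytes each, grouped by the labels into Control (1 and 2) and Cu (1 and 3). Per the study's methods, the authors filtered reads with SOAPnuke, mapped them with HISAT2 and Bowtie2 and calculated expression with RSEM. The submitters' processing notes instead name TopHat2 2.0.13, Cufflinks 2.2.1 and the build Sscrofa11.1, and which pipeline made the table is not stated. The deposited values are FPKM per gene with 2 decimals, with values in 16050 of 30684 rows, and the authors' mean FPKM per group. Reads cannot be recovered from values rounded in this way, so the depth is unknown and no interval or floor that needs it is given.

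Here, log2(FPKM + 1) of 8541 genes (2 or more libraries reaching 1 FPKM) was fitted with limma 3.58.1 in R 4.3.3 (variance trend, two-sided, Benjamini-Hochberg adjustment), since the count test the study describes needs read counts. The fit was run on simulated data in which every gene and library had the same spread. In the real data the Cu pair was further apart than the Control pair (median distances 0.56 and 0.27). The simulation therefore does not test the fit for these libraries. Gene coordinates are from the RefSeq table of Sscrofa11.1, in which all 16050 identifiers were found. The genes and the pathway and marker lists were chosen with earlier results of these data known. Named outside the 10 genes were their paralogues and direct partners, where tested or listed, and the gene with the smallest p in each direction of a list where it passed 0.05. LSM3, CNOT4, CNOT9, CNOT10, CNOT11, DCP1A, DCP2, WTAP, PABPC4, TUT7 and BOLL were named after their values were seen. Alternatives were a pseudocount of 0.1, no filter, no variance trend, 3 normalizations and leaving out each library.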

Additional observations from a re-analysis of the deposited data

How the results depend on the processing

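No paired analysis was possible because Control and Cu libraries share only replicate number 1. After adjustment, 0 genes passed 0.05 in limma's test under the alternatives that kept all 4 libraries, nor without either Control library, but 186 genes did without Cu 1 and 1755 without Cu 3. Without Cu 3 these held CNOT7, ZAR1, YBX2, DAZL, PABPC1L and ZFP36L2, and LSM6, ZAR1L, WEE2, CCNB1, ALKBH5 and METTL14, and without Cu 1 they held WEE2 and ALKBH5. There the spread comes from the Control pair alone, and the lone Cu library is assumed to vary like it. With each library left out in turn, genes past an unadjusted p of 0.05 ranged from 112 to 2368 higher and 15 to 590 lower. Of the 9 listed genes, 0 to 4 were higher and 0 to 2 lower at that limit, 1 to 4 had Cu above and 3 to 7 Cu below Control, and the median ranged from -0.45 to 0.04. Among the other pathway genes, 0 to 28 were higher and 1 to 9 lower. With a library left out, 1 library is set against 2, and it lies above or below a pair more easily than 2 libraries do. The shares of all tested genes given above are for 2 against 2 libraries and do not apply to these counts. Matching shares for 1 library against 2 are not given here. Whether the listed genes lay above or below Control more often than other genes was therefore not tested in these settings. The direction of 5 listed genes rested on 1 library. Without Cu 1 and without Cu 3, YBX2 was at -0.53 and 1.81, DAZL at 0.58 and -1.02, PABPC1L at -0.45 and 1.06, ZFP36L2 at -0.37 and 1.22 and CNOT6L at -0.14 and 0.040, and CNOT6L was also above 0 (0.03) without Control 2. CNOT7, BTG4, CPEB1 and ZAR1 kept their direction in all 10 alternatives, CNOT7 between -1.20 and -0.91 and BTG4 between -0.84 and -0.21. The groups did not overlap in these genes, so only the 3 normalizations could have reversed their direction. The other alternatives do not test it. The 3 normalizations moved the median of all tested genes from 0.16 to -0.07 (quantile), -0.04 (median of ratios) and -0.06 (upper quartile). The genes past an unadjusted p of 0.05 then numbered 348 higher and 298 lower, 375 and 272, and 355 and 303, compared with 477 and 122 as deposited, and 588 and 238 without the filter. Of the listed genes, 1 was lower at that limit under each normalization, without the filter and without the variance trend, and 0 were higher without the filter. Of the other pathway genes, 2 were higher under median-of-ratios and upper-quartile scaling, and 6 (no filter, quantile) or 8 (both scalings) were lower. Set against the summed FPKM of all genes but the 10 most abundant, a sum that leaves out BTG4, the summed FPKM of the 9 genes, BTG4 included, equalled 5.99% of it in Control and 3.57% in Cu, which is a ratio and not a share. The medians of the BTG/TOB, CCR4-NOT and m6A lists were below 0 under all 3 normalizations, and that of the polyadenylation list was below 0 under median-of-ratios and upper-quartile scaling. Depth limits what can be said of genes near 1 FPKM, ZFP36L2, YBX2 and CNOT1 among them.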

Other observations

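Genes that write, erase or read the m6A mark, which marks maternal mRNAs for decay through YTHDF2 among others, held 14 tested genes, 7 with a positive and 7 with a negative log2 fold change. In this list 2 genes were past an unadjusted p of 0.05 and higher in Cu and 1 was lower, and 0 passed it once p was adjusted in limma's test. Over all tested genes 5.58% were higher and 1.43% lower at the unadjusted limit, and 64.3% had a positive log2 fold change. The list was not tested against these shares. ALKBH5, an m6A eraser, was at 1.27 FPKM (Control 1), 4.03 (Control 2), 15.4 (Cu 1) and 13.02 (Cu 3), which gave a log2 fold change of 2.17 (interval 0.98 to 3.35, adjusted p = 0.631 in limma's test). METTL14, a writer subunit, was at 356 FPKM (Control 1), 230 (Control 2), 149 (Cu 1) and 150 (Cu 3), which gave a log2 fold change of -0.93 (interval -1.70 to -0.17, adjusted p = 0.656 in limma's test), and of -0.62 without Control 1. WTAP, another writer subunit, had a log2 fold change of 0.83 with 281 FPKM (Control 1), 323 (Control 2), 489 (Cu 1) and 588 (Cu 3). The authors' means were closer together than the library means in all of these. For ALKBH5 they were 2.30 (Control) and 11.1 (Cu), against library means of 2.65 and 14.2. For METTL14 they were 226 and 175, against 293 and 150, and for WTAP 309 and 460, against 302 and 539. If 3 sets were averaged, those not analysed here ran in the opposite direction for METTL14 and WTAP and in the same direction for ALKBH5. YTHDF2 overlapped between the groups, with 9.03 to 15.2 FPKM. Of the terminal uridylation genes, only TUT7 was tested, with 6.33 FPKM (Control 1), 6.79 (Control 2), 5.06 (Cu 1) and 4.86 (Cu 3). BOLL, the other gene of the DAZ and BOULE list, was at 2.64 to 4.52 FPKM, and DAZL was 2.59 to 5.06 times as high.

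The tested genes nearest to BTG4, by Euclidean distance of log2(FPKM + 1) over the 4 libraries, were UBB at 1.04, PTTG1 at 1.20 and CKS1B at 1.97. The measure weighs the level more than the pattern over libraries. UBB, a ubiquitin gene, had 15631 FPKM (Control 1), 15724 (Control 2), 13873 (Cu 1) and 17710 (Cu 3), and its log2 fold change was 0.00, where BTG4 had -0.57.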
